A study of Mus musculus with 6 samples.

Results

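The genes described here encode calcium, protein kinase A and MAP kinase signalling proteins that are known for their part in synaptic plasticity: Camk2a, Camk2b, Camk4, Ppp3ca, Prkaca, Mapk3, Map2k1 and Creb1. They were picked by name, as every probe set that the platform annotation assigns to one of these 8 symbols. The annotation used here gave probe sets for 7 of the 8 genes, 24 probe sets in all of 45101 on the array, and Mapk3, which encodes the kinase ERK1, was not analysed here. Of the 24 probe sets, 16 had a mean log2 level of at least 4 over all arrays and entered the test, with every one of the 7 genes among them, and 8 lay below that level.

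The zinc diet mice were 3 males given the diet labelled ZnR (replicates 3, 7 and 10), and their controls were 3 males on the control diet (replicates 1, 9 and 11). All 6 mice were of the inbred strain 129S1/SvImJ (S1), 8 to 10 weeks old, and all had gone through fear extinction training. The amygdala was dissected 2 h after it, and each mouse gave 1 Affymetrix Mouse430_2 array. The zinc content of the diet is not given in the labels, so the diet is called the zinc diet, as a short form of ZnR. This name does not mean that zinc was added. Whether zinc was supplemented or restricted is left undecided by it, and higher and lower below refer to RNA levels only. No mouse without extinction training is in the series, so every value describes trained animals.

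In a forebrain neuron, calcium that enters through glutamate receptors binds calmodulin, which turns on the calmodulin-dependent kinases and the phosphatase calcineurin. Cyclic AMP turns on protein kinase A, and growth factor and calcium signals turn on the cascade in which MEK1 phosphorylates ERK1 and ERK2. These routes meet at CREB1, a transcription factor that, once phosphorylated, recruits coactivators and drives genes needed for lasting synaptic change, and the amygdala is a classic site where this chain is tied to fear memory. All of these enzymes are switched by calcium, cyclic AMP or phosphorylation, and an array reads only the amount of their RNA.

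CREB1 binds the cyclic AMP response element, whose palindromic form is TGACGTCA and whose half-site is TGACG on one strand and CGTCA on the other. Windows of 250 bases before a gene start were read from RefSeq (GRCm38.p6), where 4 of the 7 genes matched, and they are shown because they are where the last member of the chain could bind the genes of the earlier members. Capitals mark the half-sites, which were searched on both strands and are contained in the palindrome. The windows are those of Prkaca (chr8:83972728-83972977, plus strand, the start of 2 that is further upstream), Map2k1 (chr9:64253606-64253855, minus strand) and Creb1 (chr1:64532554-64532803, plus strand).
Prkaca: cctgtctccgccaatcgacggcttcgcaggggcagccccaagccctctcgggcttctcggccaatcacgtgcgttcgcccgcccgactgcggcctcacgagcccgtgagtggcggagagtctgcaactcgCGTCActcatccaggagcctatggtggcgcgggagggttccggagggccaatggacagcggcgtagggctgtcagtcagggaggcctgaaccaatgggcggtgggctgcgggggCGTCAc
Map2k1: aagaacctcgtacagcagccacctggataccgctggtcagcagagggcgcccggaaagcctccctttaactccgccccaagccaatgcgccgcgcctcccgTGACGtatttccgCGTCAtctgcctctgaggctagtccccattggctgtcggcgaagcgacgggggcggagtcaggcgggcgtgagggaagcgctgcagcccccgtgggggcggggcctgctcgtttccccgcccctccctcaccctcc
Creb1: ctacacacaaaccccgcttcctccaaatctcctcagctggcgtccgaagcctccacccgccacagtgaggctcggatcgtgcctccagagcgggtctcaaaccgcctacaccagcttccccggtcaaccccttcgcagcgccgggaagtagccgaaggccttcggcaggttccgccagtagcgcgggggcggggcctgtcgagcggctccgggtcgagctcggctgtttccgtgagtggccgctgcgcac

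Half-sites lay at 120 to 116 and at 6 to 2 bases before the Prkaca start, and at 149 to 145 and 136 to 132 bases before the Map2k1 start. None was found in the windows of Creb1, Camk2b or the second Prkaca start, and none of the 5 member windows held the palindrome. Of all 32851 RefSeq windows of this length, 17.8% held a half-site and 1.55% the palindrome. A match in these letters is a description and not a binding site.

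None of the 16 tested probe sets passed the test between diets. Their limma adjusted p-values, taken over all 22877 probe sets tested, ran from 0.779 to 0.994, and the differences ran from -0.26 to 0.25 on the log2 scale. Across the array the count was also 0, or 0% of the probe sets tested, and 1460 had an unadjusted p under 0.05. One member probe set, of Camk4, was among these, which for 1 of 16 is close to the background of 6.38% (3.63% higher and 2.75% lower). The median size of the difference, regardless of sign, was 0.081 over the 16 probe sets and 0.087 over all tested.

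Diets did not overlap for 6 of the 16 probe sets, 4 with all zinc diet mice above and 2 with all of them below the control mice, where 12% of all tested probe sets did not overlap (6.66% higher and 5.33% lower). The 6 come from 4 genes (Camk2a, Camk4, Ppp3ca and Creb1), and probe sets of 1 gene read the same RNA, so they are not independent. By the leading probe set, meaning the one with the highest mean of each gene, 4 of 7 genes did not overlap, 3 higher and 1 lower, beside 13.7% of the 11221 genes with a leading probe set tested (8.12% higher and 5.55% lower). The 95% interval of the difference lay within 1.3-fold either way for 12 of the 16 probe sets, within 1.5-fold for 14 and within 2-fold for all 16.

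**Figure D1:**
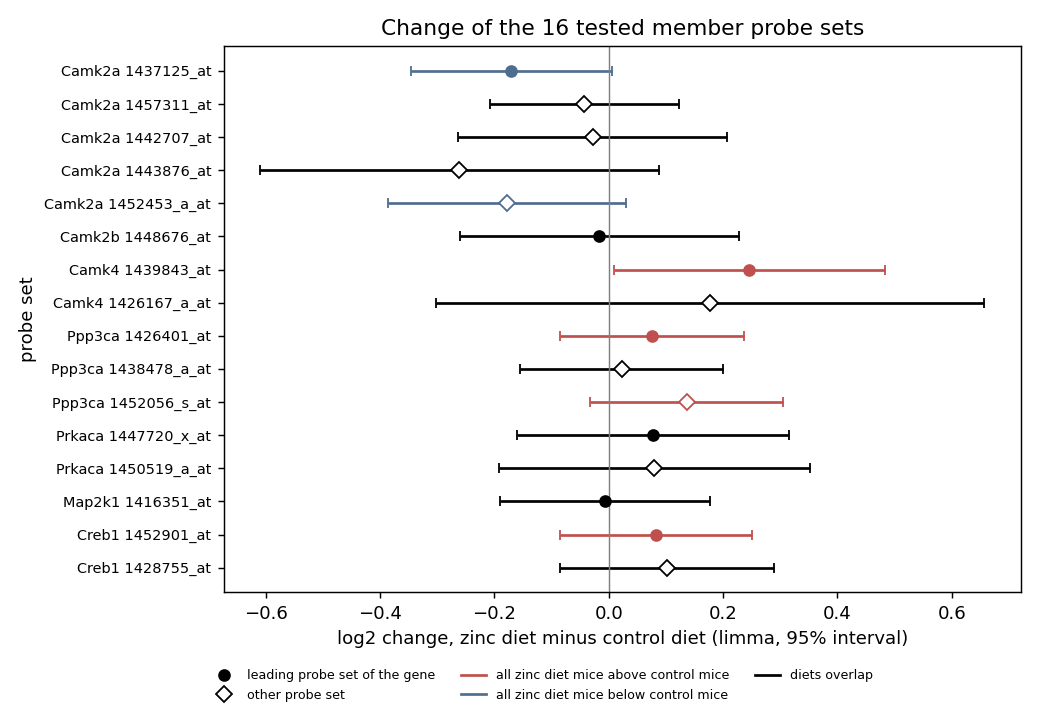
Log2 change (zinc diet minus control diet, limma) with its 95% interval for each of the 16 member probe sets tested, with filled circles for the leading probe set of a gene. All Camk2a points lie left of 0, all Camk4, Ppp3ca, Prkaca and Creb1 points lie right of it, and the interval of 1 probe set, the leading one of Camk4, does not reach 0 before adjustment.

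Camk2a encodes the alpha subunit of calmodulin kinase II, the abundant postsynaptic kinase of excitatory forebrain neurons. Its leading probe set stood at 11.862, 11.891 and 11.992 in zinc diet replicates 3, 7 and 10, against 12.052, 12.135 and 12.068 in control replicates 1, 9 and 11 (log2 level). All zinc diet mice were below all control mice, by 0.060 between the nearest pair. The difference was -0.17 ± 0.074 (SE), a fold of 0.889 (95% interval 0.787 to 1.005), and did not pass (limma adjusted p = 0.789).

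The other 4 tested probe sets of Camk2a were lower in the zinc diet mice as well. Probe set 1452453_a_at averaged 5.573 ± 0.064 under the zinc diet and 5.751 ± 0.12 under the control diet (SD, n = 3 each). Its groups did not overlap, though only 0.0036 separated zinc diet replicate 10 from control replicate 11. Probe set 1443876_at had the widest interval of the 5, with a difference of -0.26 ± 0.15 (SE). There the control mice spread from 8.4235 to 8.9719 and the zinc diet mice, from 8.3132 to 8.5322, overlapped them. The remaining pair, 1457311_at and 1442707_at, differed by -0.043 ± 0.070 and -0.028 ± 0.099 (SE), with overlapping diets. A sixth probe set, 1441734_at, lay below the level needed for the test, at 2.759 ± 0.13 for zinc diet mice, against 2.746 ± 0.11 for control mice (SD, n = 3 each). The shared sign of the 5 is therefore made up of differences from -0.26 to -0.028, none past the test.

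Camk2b encodes the beta subunit, which binds actin and assembles with alpha into the same holoenzyme. Its 1 probe set read 11.763, 11.857 and 11.902 in zinc diet replicates 3, 7 and 10, against 11.997, 11.678 and 11.897 in control replicates 1, 9 and 11. The zinc diet mice lay inside the control range, and the difference was -0.016 ± 0.10 (SE, limma adjusted p = 0.989). Within each array, the Camk2a level minus the Camk2b level gave 0.099, 0.033 and 0.090 in zinc diet mice, against 0.055, 0.46 and 0.17 in control mice. The diets overlapped in this measure, and the changes of the 2 genes differed by -0.15 (exact permutation test, two-sided p = 0.3, n = 3 each, smallest possible 0.1). Control replicate 9, in which Camk2b was lowest, gave the 0.46, and without it the changes differed by -0.039.

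Camk4 encodes calmodulin kinase IV, the largely nuclear kinase that phosphorylates CREB1 at its activating serine. Its leading probe set was 10.780, 10.963 and 11.101 in zinc diet replicates 3, 7 and 10, against 10.666, 10.677 and 10.763 in control replicates 1, 9 and 11. The zinc diet mice were all higher, but zinc diet replicate 3 exceeded control replicate 11 by only 0.016. The fold was 1.19 (95% interval 1.006 to 1.40; log2 change 0.25 ± 0.099 SE), with a limma adjusted p = 0.779, the smallest among the 16 probe sets.

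A second tested probe set of Camk4, 1426167_a_at, had a mean of 8.305 ± 0.17 for zinc diet mice, against 8.127 ± 0.39 for control mice (SD, n = 3 each). Control replicate 9, at 8.5789, was above every zinc diet mouse there, so the groups overlapped, and its spread within diets was larger than that of most tested probe sets (percentile 91.8). Among the 3 Camk4 probe sets below the tested level, 1421941_at had all zinc diet mice above all control mice, from 3.5988 to 3.7669 against 3.2619 to 3.4662. A level that low cannot be told from background here. The other pair showed no separation, and 1441974_at ranged from 2.8246 to 4.6667 among zinc diet mice and from 2.632 to 4.0004 among control mice.

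Ppp3ca encodes the alpha isoform of the calcineurin catalytic subunit, the calcium-dependent phosphatase that opposes these kinases and has been tied to the weakening of fear memories. Its leading probe set was 13.393, 13.417 and 13.444 in zinc diet replicates 3, 7 and 10, against 13.305, 13.368 and 13.354 in control replicates 1, 9 and 11. All zinc diet mice were higher, in a narrow band, and its spread within diets was smaller than that of nearly all tested probe sets (percentile 1.70). The difference was 0.076 ± 0.067 (SE, limma adjusted p = 0.896), with a standard error that limma moderates towards the spread of the whole array.

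Probe set 1452056_s_at of Ppp3ca, designed on the same target sequence as the leading one and of a type that can match related transcripts, also separated the diets. It stood at 12.166, 12.212 and 12.287 in zinc diet replicates 3, 7 and 10, against 12.062, 12.105 and 12.088 in control replicates 1, 9 and 11, a difference of 0.14 ± 0.071 (SE, limma adjusted p = 0.817). The third, 1438478_a_at, did not separate them, at 12.83 ± 0.0087 for zinc diet mice, against 12.81 ± 0.083 for control mice (SD, n = 3 each). In this last case control replicates 1 and 9 stood at both ends, 12.722 and 12.888, with the zinc diet mice between.

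**Figure D2:**
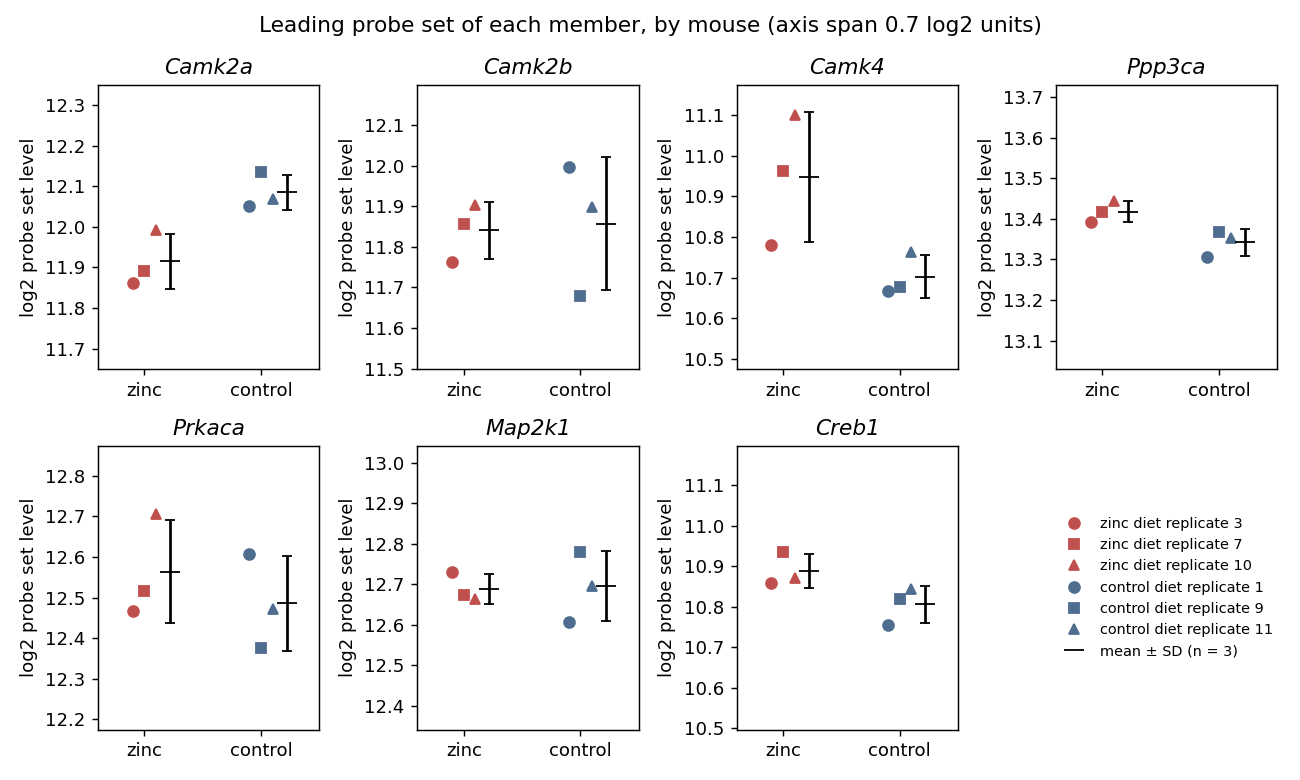
Log2 level of the leading probe set of each of the 7 genes in each mouse (points), with mean and SD (bars, n = 3 per diet), on axes that all span 0.7 log2 units. Zinc diet mice lie below control mice for Camk2a and above them for Camk4, Ppp3ca and Creb1, while the diets overlap for Camk2b, Prkaca and Map2k1.

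Prkaca encodes the alpha catalytic subunit of protein kinase A. Its leading probe set, of a design in which some probes can match other sequences, read 12.466, 12.517 and 12.707 in zinc diet replicates 3, 7 and 10, against 12.608, 12.377 and 12.472 in control replicates 1, 9 and 11. The diets overlapped, with zinc diet replicate 10 and control replicate 1 as the 2 highest mice. The log2 change was 0.078 ± 0.10 (SE, limma adjusted p = 0.929), and the second probe set, 1450519_a_at, gave 0.080 ± 0.11 (SE).

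Map2k1 encodes MEK1, the kinase directly upstream of ERK1 and ERK2. Its single probe set was at 12.730, 12.673 and 12.663 in zinc diet replicates 3, 7 and 10, against 12.608, 12.780 and 12.697 in control replicates 1, 9 and 11. All zinc diet mice fell inside the control range. The difference was the smallest of the leading probe sets, -0.0067 ± 0.077 (SE), with a 95% interval of 0.877 to 1.13 as a fold and a limma adjusted p = 0.994. The mouse with the most Camk2b, control replicate 1, had the least Map2k1, and control replicate 9 the reverse. Over all 6 arrays the levels of the 2 genes had a Pearson r of -0.966, given without a test since the arrays share their normalisation. It was the largest r in size among all pairs of leading member probe sets, and Camk4 with Ppp3ca came next (0.885).

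Creb1 encodes the transcription factor on which the routes converge. Its leading probe set stood at 10.858, 10.935 and 10.872 in zinc diet replicates 3, 7 and 10, against 10.755, 10.819 and 10.843 in control replicates 1, 9 and 11. Every zinc diet mouse was higher, the nearest pair by 0.015, and the log2 change was 0.083 ± 0.070 (SE, limma adjusted p = 0.889). Probe set 1428755_at, designed on the same target sequence, gave 0.10 ± 0.078 (SE) with overlapping diets. Of the 4 Creb1 probe sets below the tested level, 2 had a higher and 2 a lower mean in zinc diet mice, all with overlap.

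The closest profiles to each leading member probe set were sought among 11220 other genes by Pearson r over the 6 arrays, as a description. Akap5, which anchors protein kinase A and calcineurin at the postsynaptic membrane, and Golph3 were closest to Camk4 (r = 0.990 for both). For Ppp3ca they were Rspo2 (0.993) and Slc35e2 (0.992), for Creb1 Gm6556 (0.998) and Apod (0.995), and for Camk2a Rbmxl1 and Exosc9 (0.983 for both). Camk2b was closest to Ywhae (0.995) and Tfr2 (0.992), Prkaca to Twf2 and Hnrnpr (0.994 for both), and Map2k1 to A830010M20Rik (0.999) and Terf2ip (0.995). With 6 arrays many genes reach such values: between 78 and 341 genes had an r over 0.9 with a given member.

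To place the members in their pathways, 125 other genes in 6 lists were read from the same fit, by leading probe set. Of these, 102 were tested and 0 passed the adjusted threshold. At an unadjusted p under 0.05 there were 12, 10 higher and 2 lower in zinc diet mice, or 11.8% of those tested, beside 7.04% of all leading probe sets (4.36% higher and 2.68% lower). Diets did not overlap for 19 of the 102, 15 higher and 4 lower, or 18.6%, beside 13.7% of all genes. Their median log2 change was 0.034, and that over all leading probe sets was 0.013.

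**Figure D3:**
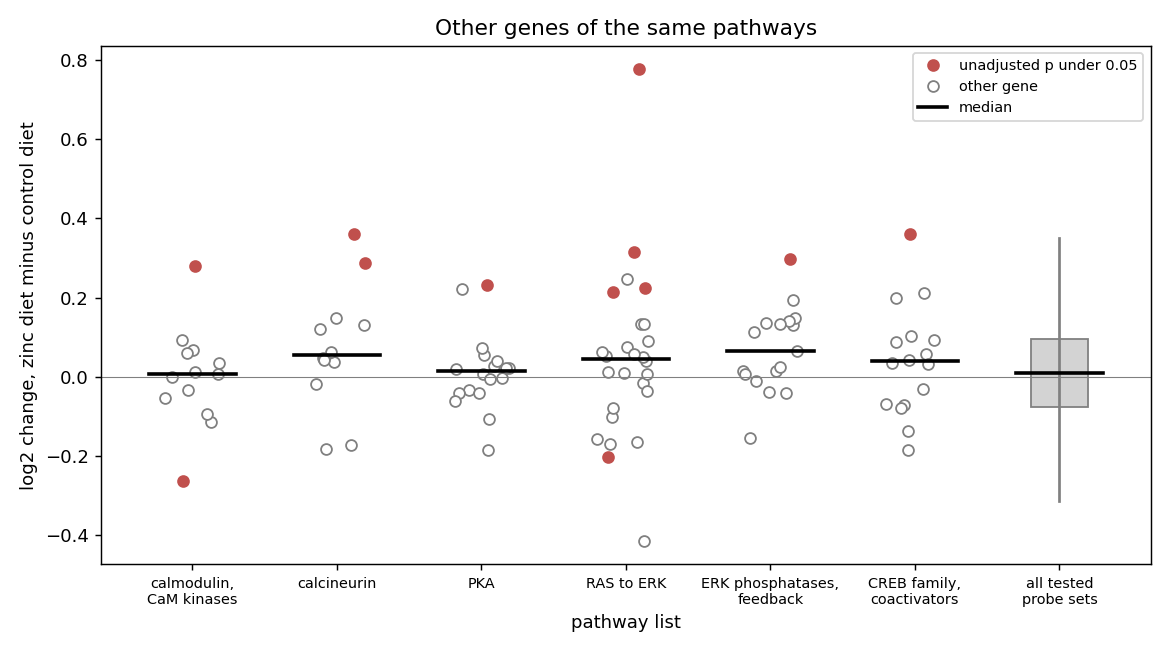
Log2 change (zinc diet minus control diet) of the leading probe set of each tested pathway gene, by list, with the list median as a bar, and at the right the median, the middle 50% (box) and the middle 95% (line) of all tested probe sets. Most genes lie within the range of that line, Rasgrp2 of the RAS to ERK list stands at 0.78, and 12 genes are past an unadjusted p of 0.05.

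Around calmodulin, 13 of 17 listed genes were tested, 7 higher and 6 lower, with a median of 0.0056. The other calmodulin kinase II subunit genes, Camk2d and Camk2g, differed by 0.0056 ± 0.15 and 0.092 ± 0.078 (SE), with the 3 zinc diet mice of Camk2g above the control mice by as little as 0.00027. Pcp4, a small protein that speeds calcium exchange on calmodulin, was at 12.339, 12.474 and 12.296 in zinc diet replicates 3, 7 and 10, against 12.101, 12.089 and 12.078 in control replicates 1, 9 and 11 (0.28 ± 0.077 SE, limma adjusted p = 0.633). Pnck, a calmodulin kinase of the CaMKI group, averaged 10.47 under the zinc diet, against 10.74 under the control diet, and all zinc diet mice were lower (-0.26 ± 0.099 SE, limma adjusted p = 0.758). The CaMKII inhibitor gene Camk2n2 also had all zinc diet mice lower (-0.11 ± 0.076 SE), while Nrgn, a calmodulin-binding postsynaptic protein (-0.095 ± 0.085), and Camk1 (0.067 ± 0.075) overlapped.

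On the calcineurin side, 12 of 14 genes were tested, 9 higher and 3 lower, with a median of 0.055. The partner subunit genes Ppp3cb and Ppp3r1 differed little, by 0.048 ± 0.078 and 0.041 ± 0.082 (SE). The calcineurin regulators Rcan2 (0.29 ± 0.095 SE) and Rcan1 (0.15 ± 0.080), and the anchor gene Akap5 (0.36 ± 0.13) had all zinc diet mice above all control mice, with limma adjusted p-values of 0.714, 0.823 and 0.746. On the lower side, each with overlap, were the calcineurin inhibitor gene Cabin1 (-0.18 ± 0.13), the gamma catalytic subunit gene Ppp3cc (-0.17 ± 0.18) and Nfatc1 (-0.019 ± 0.079), a transcription factor that calcineurin activates. The 2 other tested probe sets of Akap5 gave -0.046 ± 0.20 and 0.092 ± 0.23 (SE), so the difference of its leading one was not shared by them.

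For protein kinase A, all 18 genes were tested, 10 higher and 8 lower, with a median of 0.013. Prkacb, the second catalytic subunit gene, stood at 13.04 ± 0.032 for zinc diet mice, against 13.09 ± 0.034 for control mice (SD, n = 3 each, log2 change -0.042 ± 0.068 SE). Prkar2b, the regulatory subunit RII beta that is abundant in forebrain and striatal neurons, was the 1 gene of the list at an unadjusted p under 0.05, at 10.862, 10.988 and 11.073 in zinc diet replicates 3, 7 and 10, against 10.872, 10.723 and 10.629 in control replicates 1, 9 and 11. Zinc diet replicate 3 and control replicate 1 overlapped by 0.01, and the change was 0.23 ± 0.097 (SE, limma adjusted p = 0.779). The other tested probe sets of Prkar2b gave 0.17 ± 0.089 and 0.34 ± 0.27 (SE), also with overlap. The anchor genes Akap12 (0.22 ± 0.15), Akap6 (0.073 ± 0.068) and Akap8 (-0.11 ± 0.096), the receptor gene Gpr161 (-0.18 ± 0.089) and the inhibitor gene Pkib (-0.061 ± 0.092) had larger p-values. Among them only Akap6 did not overlap, with all zinc diet mice higher, the nearest pair by 0.0098.

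The RAS to ERK list had 26 of 37 genes tested, 17 higher and 9 lower, with a median of 0.045. Rasgrp2, a calcium and diacylglycerol sensitive activator of RAP1 known in striatal neurons, stood at 7.399, 7.742 and 7.262 in zinc diet replicates 3, 7 and 10, against 6.774, 6.598 and 6.705 in control replicates 1, 9 and 11. The 3 zinc diet mice were higher by at least 0.49, and the difference, 0.78 ± 0.13 (SE) or 1.71-fold, was the largest among the pathway genes but did not pass (limma adjusted p = 0.356). Its 2 other tested probe sets also separated the diets, by 0.37 ± 0.15 and 0.27 ± 0.11 (SE).

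Rasgrp1, a RAS activator of the same family, averaged 12.66 under the zinc diet, against 12.34 under the control diet (0.31 ± 0.087 SE, limma adjusted p = 0.640), and the pair of other probe sets tested for it differed by 0.62 ± 0.24 and 0.28 ± 0.12. The ERK-activated kinases that phosphorylate CREB1, RSK2 (Rps6ka3) and MSK1 (Rps6ka5), differed by 0.22 ± 0.075 and 0.22 ± 0.084 (SE), with limma adjusted p-values of 0.722 and 0.770. For both, all zinc diet mice were higher. The second tested probe set of Rps6ka3 gave 0.17 ± 0.17 with overlap, and that of Rps6ka5 gave 0.28 ± 0.11 without it (SE). Pea15a, a cytoplasmic anchor of ERK, was the 1 gene lower at an unadjusted p under 0.05, at 12.32 under the zinc diet, against 12.52 under the control diet, without overlap (-0.20 ± 0.067 SE, limma adjusted p = 0.713). Its second tested probe set gave -0.090 ± 0.086 (SE) with overlapping diets. Rasgrf2, a calcium-activated RAS exchange factor (-0.16 ± 0.10), and the RSK family gene Rps6ka6 (-0.17 ± 0.12) overlapped. Map2k2, which encodes the sister kinase MEK2, had the most negative difference of the list, -0.41 ± 0.30 (SE), with an SD of 0.63 among zinc diet mice and 0.20 among control mice.

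Among the brakes on ERK, 17 of 19 genes were tested, 13 higher and 4 lower, with a median of 0.065. Spry3, a sprouty family inhibitor gene, was the 1 below an unadjusted p of 0.05, at 6.73 under the zinc diet, against 6.43 under the control diet (0.30 ± 0.10 SE, limma adjusted p = 0.722). The RAF inhibitor gene Spred1 (0.19 ± 0.091) and the phosphatase scaffold gene Ppp2r1b (0.15 ± 0.078) came next, and the nuclear MAP kinase phosphatase genes Dusp4 and Dusp5 and the sprouty gene Spry1 were lower with overlap, at -0.15 ± 0.12, -0.038 ± 0.11 and -0.041 ± 0.085. Dusp6, the cytoplasmic ERK phosphatase, and Ptpn5, the striatum-enriched phosphatase STEP, gave 0.13 ± 0.14 and 0.14 ± 0.13 (SE), also with overlap. Spred1 overlapped as well, by 0.0072. All zinc diet mice were above all control mice for 4 of the 17 genes (Spry3, Ppp2r1b, Spred2 and Spry2), beside 8.12% of all leading probe sets.

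Near CREB1 itself, 16 of 20 genes were tested, 10 higher and 6 lower, with a median of 0.039. Crem, a close relative of Creb1 that also gives the inducible repressor ICER, was at 7.467, 7.302 and 7.143 in zinc diet replicates 3, 7 and 10, against 6.826, 7.134 and 6.869 in control replicates 1, 9 and 11. All zinc diet mice were higher, the nearest pair by 0.0088, with a change of 0.36 ± 0.12 (SE, limma adjusted p = 0.722). Its second tested probe set had the opposite sign (-0.18 ± 0.14 SE), so the 2 disagree. Sik2 (0.21 ± 0.096) and Sik3 (0.10 ± 0.075), kinases that hold back the CREB coactivators, and the coactivator genes Crtc1 (0.035 ± 0.15), Crebbp (0.087 ± 0.16) and Crtc3 (-0.19 ± 0.090) overlapped, as did Atf5 (-0.14 ± 0.089). Crebzf had all zinc diet mice lower by a small amount (-0.078 ± 0.066).

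Of the 97 pathway genes with a RefSeq window, 7 (7.22%) held the palindromic response element and 34.0% a half-site, where 1.77% and 19.8% of all genes did. The 6 of the 7 that were tested gave log2 changes of 0.15 ± 0.080 (Rcan1), 0.065 ± 0.21 (Dusp1), 0.040 ± 0.096 (Braf), 0.020 ± 0.066 (Prkar1a), 0.014 ± 0.069 (Ppp2ca) and 0.0067 ± 0.081 (Rap1b) (SE). Rcan1 was the 1 of them whose diets did not overlap, and Creb5 lay below the tested level. In the shares above, a gene counted if any of its windows held the letters. Pathway genes and all genes were not matched for number of windows or for RNA level, and the difference in shares was not tested.

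**Figure D4:**
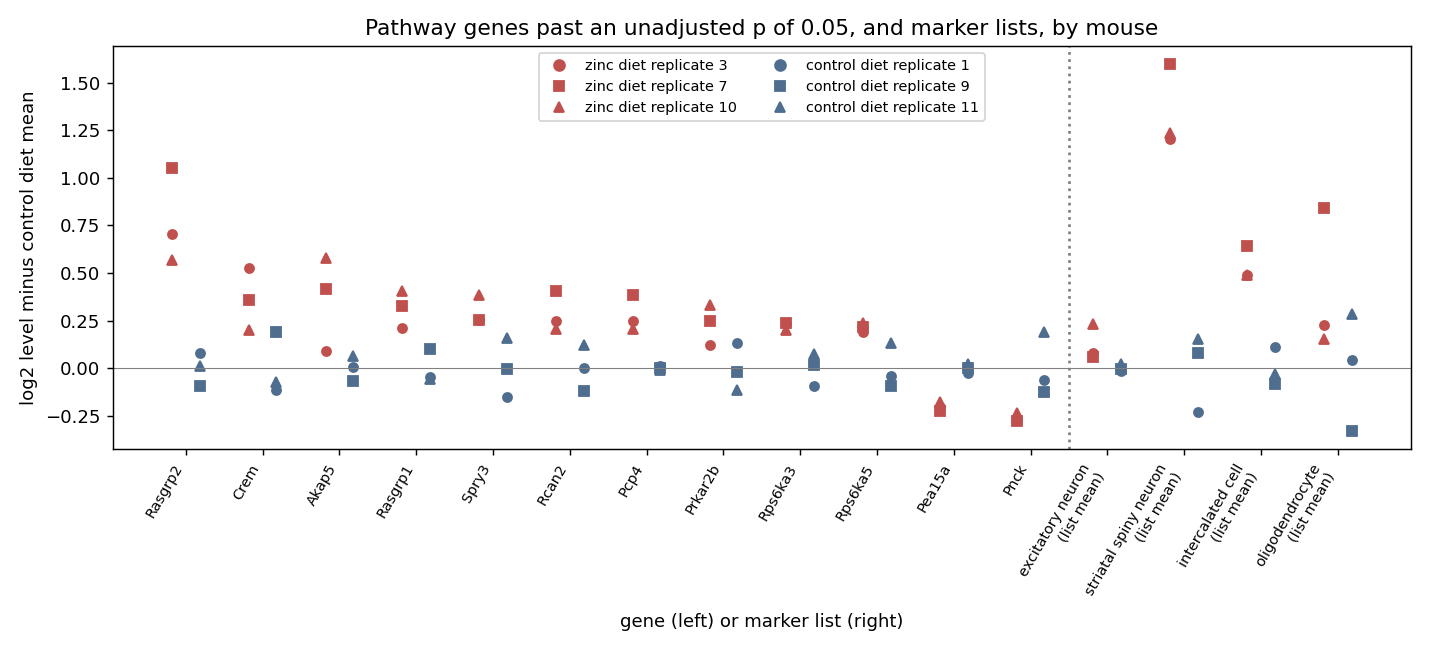
Log2 level of each mouse minus the control diet mean for the 12 pathway genes past an unadjusted p of 0.05 (left of the dotted line) and for the mean of 4 marker lists (right). Zinc diet mice are above control mice for 9 of these genes and below them for Pea15a and Pnck, Prkar2b overlaps, and the striatal spiny neuron list shows the widest gap.

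The dissected tissue held RNA of several cell types, and some marker levels differed between the diets, although 0 of the 78 marker genes tested passed the adjusted threshold in limma (25 had an unadjusted p under 0.05, and the smallest adjusted p was 0.0763). Of 14 striatal spiny neuron markers, 12 were tested and all 12 had every zinc diet mouse above every control mouse, beside 8.12% of all leading probe sets. The list means were 9.02 to 9.41 in zinc diet mice, against 7.58 to 7.97 in control mice, and no marker of the list lay below the tested level. Of the 4 intercalated cell markers, 3 had every zinc diet mouse higher, and the list means were 10.39 to 10.54 in zinc diet mice and 9.82 to 10.01 in the controls. Drd1, among the 3, is also on the striatal list, so the lists are not separate, and the remaining marker, Tshz1, overlapped (0.13). Means of the excitatory neuron list (5 of 10 tested markers higher) were 9.86 to 10.03 and did not overlap the 9.78 to 9.82 of control mice. Nor did those of the inhibitory neuron list (6 of 9 higher), at 9.97 to 10.07 in zinc diet mice and 9.79 to 9.96 in the controls. Markers within both lists were mixed. The excitatory median change was -0.0030, with Rspo2 at 0.77 and Neurod6 at 0.67, but Lmo3 at -0.43 and Slc17a7 at -0.080. The inhibitory median change was 0.081, with Pvalb at 0.74 and Dlx1 at -0.38. Zinc diet replicate 7 was highest for the striatal list and for the oligodendrocyte list (8 of 8 tested markers higher), where it stood at 10.53 and the other 5 mice at 9.36 to 9.98. It was also highest for the intercalated (10.54), inhibitory (10.07) and central amygdala (8.95) lists, and for Rasgrp2, Pcp4 and Rcan2. Zinc diet replicate 10 was highest for the excitatory (10.03) and basolateral (9.37) lists, and for Rasgrp1, Akap5, Prkar2b, Spry3 and Rps6ka5. Zinc diet replicate 3 was highest for the endothelial list (7.22) and for Crem. Amygdala markers were detected in both diets. The 6 tested basolateral markers averaged 9.10 to 9.37 in zinc diet mice, against 8.96 to 9.21 in control mice. Of these, 3 were higher and 3 lower. Lypd1 (-0.74) had every zinc diet mouse lower, and Rspo2 and Neurod6, also on the excitatory list, had every one higher. The 8 central amygdala markers averaged 8.82 to 8.95, against 8.38 to 8.92, and 7 of them were higher (median change 0.26). For 2 of them, Cyp26b1 (0.33) and Wfs1 (0.076), every zinc diet mouse was above the controls. List means of astrocyte, microglia and endothelial markers overlapped between the diets, and 0 of these markers had an unadjusted p under 0.05 in limma. Their median changes were -0.029 (3 of 8 tested higher), 0.0023 (4 of 7) and 0.12 (3 of 4). The choroid plexus list, with 5 of 8 markers tested, averaged 8.57 in control replicate 9 and 5.55 to 6.30 in the other mice. Of its markers, Ttr was at 14.68 in control replicate 9 and 9.39 to 12.27 in the other mice. Kcnj13 (7.56, against 2.94 to 3.45) and Kl (6.17, against 3.47 to 4.02) reached the tested level only through control replicate 9. The part of these markers in the differences above was not tested, and in dissected tissue more cells of a type cannot be told apart from more RNA per cell.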

How the data were processed

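RNA of the amygdala of 6 mice was labelled (500 ng each, per the labels' protocols) and hybridised to 1-colour 3' expression arrays. The authors deposited 1 table of log2 probe set levels. The submitters' processing notes list R 2.15.1 and GCRMA 2.28.0 with no role or order. Options and filters are not given in the sources used here. That the scale is log2 follows from the range of the values, with array medians of 4.044 to 4.092, and whether they were centred is unknown. GCRMA can compress differences at low levels, and without scanner files low values cannot be told from background.

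Of 45101 probe sets, 64 controls were left out. The annotation gave 1 symbol for 34958, several for 932 and none for 9211, and no member symbol occurred among those with several. Probe sets with a mean log2 level of at least 4 were tested (22877) by a two-sided limma 3.58.1 fit (R 4.3.3, lmFit then eBayes) with no term but diet, and with Benjamini-Hochberg adjustment over all of them and a threshold of 0.05. Array pairs correlated at 0.991 to 0.996 over these. SE is the moderated standard error of the log2 change, and with 3 arrays per diet the number of arrays limits precision. The limma step was tested on simulated data.

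Named were all member probe sets and, per pathway list, the 3 genes with the smallest p in each direction and any at an unadjusted p under 0.05. Paralogue and partner genes named beside them (Camk2d, Ppp3cb, Ppp3r1, Prkacb, Map2k2, Dusp6, Ptpn5, Crtc1 and Crebbp) were chosen after their values were seen, and so was the search for response elements. Members and lists were chosen with earlier results of these data known. Alternatives were other level filters, quantile normalisation, centring on medians, trended and robust moderation, weighting of arrays, the title number as covariate, values under 4 set to 4, gene means over probe sets, and leaving out each mouse.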

Additional observations from a re-analysis of the deposited data

How the results depend on the processing

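No paired analysis was possible because the diets share no replicate number. In none of the 230 refits of a member probe set did it pass the adjusted threshold, and 12 of these turned its sign. Camk2b was 0.0011 with array weights and ran from -0.11 to 0.054 when 1 mouse was left out. Leaving out 1 mouse gave -0.11 to 0.019 for Camk2a 1442707_at, -0.050 to 0.036 for Map2k1, -0.021 to 0.062 for Ppp3ca 1438478_a_at and -0.024 to 0.18 for Prkaca 1450519_a_at. The leading probe sets of Camk2a (-0.21 to -0.11), Camk4 (0.17 to 0.33), Ppp3ca (0.054 to 0.089), Prkaca (0.0059 to 0.14) and Creb1 (0.027 to 0.10) kept their sign in every alternative run. Camk2a 1452453_a_at was not tested at a mean of at least 6. The change of Camk2a minus that of Camk2b, -0.15, was -0.039 without control replicate 9, -0.24 without control replicate 1 and -0.18 to -0.095 in the other alternatives. Spry1 (-0.098 to 0.0081), Dusp5 (-0.13 to 0.022) and Nfatc1 (-0.075 to 0.020) changed sign without 1 mouse. Leaving out 1 mouse moved 9 of the 16 member values and 17 of the 37 named pathway genes by over 1.5 times or across 0, all short of the adjusted threshold. Without control replicate 1, Camk2a 1443876_at was -0.12, Ppp3cc -0.046, Cabin1 -0.078 and Pkib -0.0013. Camk4 1426167_a_at was 0.40 without control replicate 9 and 0.047 without control replicate 11, Nrgn -0.035 without control replicate 9, Akap12 0.10 without zinc diet replicate 3 and Pnck -0.17 without control replicate 11.

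Over the array, 2 probe sets passed the adjusted threshold at a mean of at least 6, 3 with trend and robust eBayes and 1 with the title number as covariate. Unadjusted, 2429 had a p under 0.05 with no filter, which tests more probe sets, and 2345 with array weights, and leaving out 1 mouse gave 852 (without zinc diet replicate 7) to 2249 (without control replicate 1). Medians of pathway lists moved as follows. At a mean of at least 6, calcineurin gave 0.12 and the ERK phosphatases 0.12. The RAS to ERK list gave 0.022 with quantile normalisation and 0.023 with median centring, where PKA gave -0.0081. With gene means PKA gave -0.016 and the ERK phosphatases 0.0090. Leaving out 1 mouse gave -0.038 (without zinc diet replicate 10) to 0.048 (without zinc diet replicate 3) for calmodulin, 0.035 (without control replicate 1) to 0.11 (without control replicate 11) for calcineurin and -0.0051 (without control replicate 9) to 0.058 (without control replicate 1) for the CREB list. The cause was not tested. Values near or under 4 and the 3 arrays per diet limit what can be seen.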
